A study of Mus musculus with 6 samples.

Results

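Class 3 semaphorins, the neuropilins and the plexin Plxnd1 form a set of 10 genes for secreted axon guidance cues and their receptors, and 8 of them could be read on arrays that compared medial with lateral motor neurons of the mouse spinal cord. The members were chosen by name, with earlier results of these data known. A gene was read from the row whose only annotated symbol it is. Sema3a, Sema3b, Sema3c, Sema3d, Sema3e, Sema3f, Nrp1 and Plxnd1 each had 1 such row. Nrp2 had only a row shared with another gene, and Sema3g had no row with its symbol, so neither is described. The whole table held 14860 genes with a row of their own.

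The samples were motor neurons from the lumbar spinal cord of HB9::GFP mouse embryos (line mHB9-Gfp1b) on embryonic day 12, with 3 medial and 3 lateral samples and 1 array each. All carried the transgene, in which sequence of the motor neuron gene HB9 (Mnx1) drives green fluorescent protein, and no other allele or agent is named. The columns were dissected apart, dissociated with trypsin, and the fluorescent cells were sorted. The labels do not say how many embryos made a sample. Values are on a log2 scale, where a difference of 1 is a doubling, and run from 2.49 to 14.1 over the table.

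Class 3 semaphorins are secreted proteins that mostly repel growing axons. Most of them bind a neuropilin, which has little signalling of its own and forms a receptor with a class A plexin that carries the signal into the growth cone. Sema3e is an exception, since it can bind Plxnd1 directly without a neuropilin. In the embryonic spinal cord these cues and receptors are known for timing the entry of motor axons into the limb, for bundling them and for steering their choice between limb regions, and motor neurons make both cues and receptors.

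Column genes were read first, as a check of the dissection. The medial column markers Lhx3, Lhx4 and Mecom all had higher levels in the medial samples and the lateral column markers Foxp1, Aldh1a2 and Lhx1 in the lateral samples, by 5.84-fold for Lhx4 up to 29.3-fold for Aldh1a2, each with an adjusted p in limma of 0.00189 or less. The level of Mnx1 itself was 2.67 times as high in medial as in lateral neurons (adjusted p = 0.00102). Of 7 motor neuron markers, Mnx1 and Isl2 passed as higher in medial neurons and Isl1 and Prph as lower, with log2 differences of 1.57 for Isl2, −0.64 for Isl1 and −1.66 for Prph. The cholinergic genes Chat, Slc18a3 and Slc5a7 differed by 0.29, 0.14 and −0.15 and did not pass. Array medians lay between 6.73 and 6.84. The table gives no detection calls. As a guide to background, 8 rows for genes of skeletal muscle had mean values between 5.36 and 7.44, so a value in or below that range cannot be told apart from background here. The dimmer means of Lhx3, Mecom and Lhx1 are among them.

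**Figure D1:**
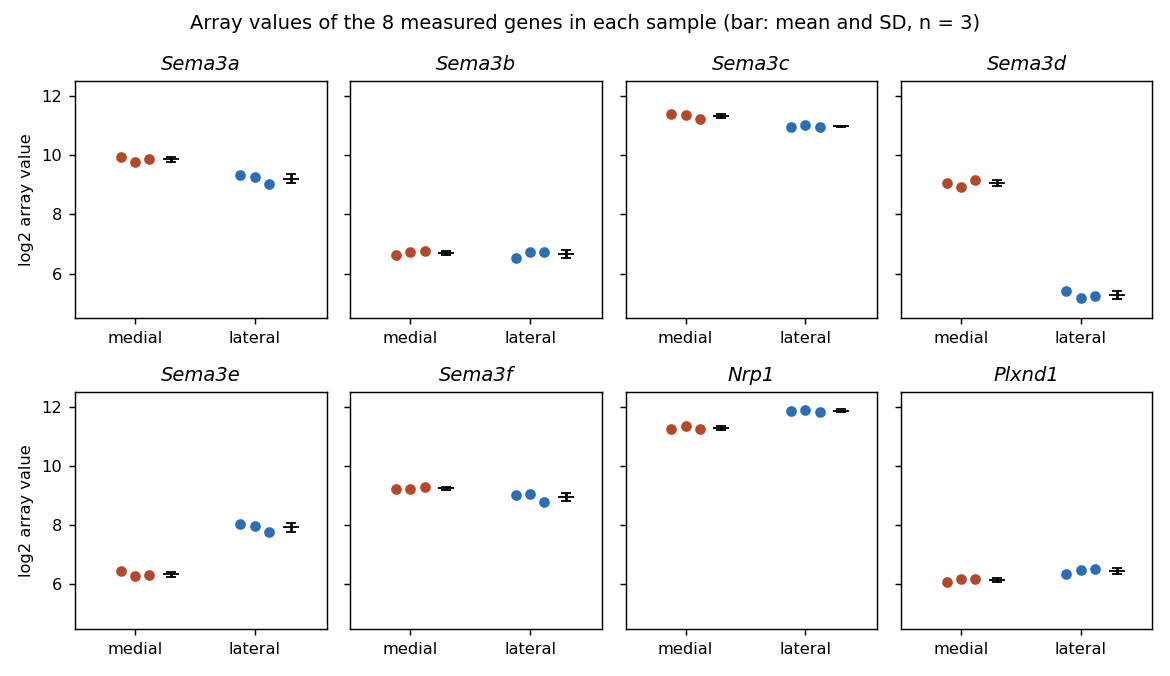
Log2 array value (vertical axis) of each of the 8 measured genes in the 3 medial and 3 lateral samples (points), with the mean and SD of each group beside them. The groups are far apart for Sema3d and Sema3e, closer but separate for Sema3a, Sema3c, Sema3f, Nrp1 and Plxnd1, and overlap for Sema3b.

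The 2 largest differences among the members belonged to semaphorin ligands and ran in opposite directions. The Sema3d level was 13.65 times as high in medial as in lateral neurons, and the Sema3e level 3.001 times as high in lateral as in medial neurons. Sema3a was higher in medial neurons by 1.56-fold and the receptor gene Nrp1 was higher in lateral neurons by 1.502-fold. Sema3c and Sema3f had larger means in the medial and Plxnd1 in the lateral samples, by 1.22-fold to 1.275-fold, and did not pass the test, nor did Sema3b. In all, 4 of the 8 measured members passed an adjusted p of 0.05 in limma, 2 in each direction, where 3.07% of all 23332 rows passed. The same 4 also differed by at least 1.5-fold, as did 2.69% of all rows. Of all rows, 1.13% passed as higher and 1.94% as lower in the medial samples. When the fit kept 1 row per gene, 5 of the members and 917 of the 14860 genes passed. The groups were free of overlap in 7 of the 8 members and in 19.3% of all rows. The median absolute log2 difference was 0.47 over the members and 0.11 over all rows. The median signed difference was 0.16 over the members and 0.02 over all rows.

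Sema3d, a ligand that acts through neuropilins and is best known from neural crest and vessel development, read 9.07, 8.94 and 9.16 in medial replicates 1, 2 and 3 and 5.43, 5.19 and 5.24 in lateral replicates 1, 2 and 3. Every medial value was at least 3.51 above every lateral value. The log2 difference was 3.77 ± 0.10 (SE, n = 3 per group), with a 95% interval from 3.53 to 4.01 and an adjusted p of 5.89e-05 in limma. On the linear scale this is 13.65-fold, with an interval from 11.5-fold to 16.1-fold. By the size of its difference it ranked 3 among the 23332 rows. The lateral mean of 5.29 lies below the lowest of the muscle genes, so the lateral signal cannot be told apart from background, and the fold can understate the difference. The call held in each of the 6 fits with 1 sample left out, with a largest adjusted p of 0.00171.

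Sema3e, the ligand of Plxnd1 and a known gene of particular limb motor pools, read 6.44, 6.27 and 6.31 in medial replicates 1, 2 and 3 and 8.04, 7.96 and 7.77 in lateral replicates 1, 2 and 3. The lowest lateral value was 1.33 above the highest medial value. The log2 difference, medial minus lateral, was −1.59 ± 0.10 (SE, 95% interval −1.83 to −1.34, adjusted p = 0.00105 in limma). In linear terms the lateral level was 3.001-fold that of the medial samples, with an interval from 2.54-fold to 3.55-fold. Here the medial mean of 6.34 fell within the range of the muscle genes. All 6 fits with 1 sample left out kept the call, with a largest adjusted p of 0.00973. Etv4, an ETS factor of limb motor pools, is known to act upstream of Sema3e in such a pool. Its level was higher in lateral neurons by 5.80-fold (−2.54 ± 0.08 on the log2 scale, SE, with an adjusted p of 1.32e-04 in limma). Whether Etv4 bears on the Sema3e difference was not tested. The 5 measured motor pool factors did not run one way. Nkx6-1 was also lower in medial neurons (−0.75 on the log2 scale, adjusted p = 0.021 in limma). That call held in 1 of the 6 fits with 1 sample left out (adjusted p up to 0.0897). Pou3f1 was higher in medial neurons by 2.20-fold (adjusted p = 0.00126). Nkx6-2 and Runx1 differed by −0.52 and −0.04 and did not pass. The Runx1 means of 5.98 in the medial and 6.02 in the lateral samples lie within the range of the muscle genes.

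Sema3d and Sema3e lie on chromosome 5, with Sema3a and other genes between them, and differed in opposite directions. The sequences at their starts are given for that reason. Each is the RefSeq window of 300 bases, 250 before and 50 after the annotated start, on the plus strand of build GRCm38.p6, at chr5:12382916-12383215 for Sema3d and chr5:14025026-14025325 for Sema3e. Capitals mark matches to TAAT, the core that homeodomain proteins such as LIM factors bind, on either strand.
Sema3d: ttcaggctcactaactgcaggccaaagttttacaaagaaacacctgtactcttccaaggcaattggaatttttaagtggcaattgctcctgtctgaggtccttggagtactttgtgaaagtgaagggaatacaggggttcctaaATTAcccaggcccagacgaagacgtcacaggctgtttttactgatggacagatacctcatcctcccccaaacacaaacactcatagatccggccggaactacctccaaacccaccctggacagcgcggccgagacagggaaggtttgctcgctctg
Sema3e: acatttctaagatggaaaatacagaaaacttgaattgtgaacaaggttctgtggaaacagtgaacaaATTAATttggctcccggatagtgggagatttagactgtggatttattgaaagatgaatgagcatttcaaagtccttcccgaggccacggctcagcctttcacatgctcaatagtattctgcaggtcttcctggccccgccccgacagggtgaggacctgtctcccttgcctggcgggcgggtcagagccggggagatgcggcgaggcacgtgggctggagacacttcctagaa
The Sema3d window held 1 such match and the Sema3e window held 2, which overlap each other. Of all 32851 windows in the table, 58.0% held at least 1. The ETS core GGAA, searched on both strands, matched 6 times in the Sema3d window and 5 times in the Sema3e window, and 96.0% of all windows had a match. The E-box CANNTG matched 3 times and 2 times, against 72.3% of windows with a match. The forkhead core TGTTTA and the retinoic acid receptor hexamer AGGTCA matched 0 times in either window, and 13.4% and 16.3% of all windows held them. The GC box GGGCGG matched 0 times for Sema3d and 2 times for Sema3e, against 35.7% of windows. The 2 windows were alike in base composition, with 49.7% and 50.7% G and C, against a median of 52.7%. A match is a run of letters, and binding was not measured. Windows were found for 6 of the 8 members.

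In the order of protein-coding genes of the same assembly, 4 of the class 3 semaphorin genes lie within a stretch of 22 genes on chromosome 5 that runs from Sema3d to Sema3c. Sema3a follows Sema3d directly, Sema3e is the next semaphorin, and Sema3c ends the stretch. Along it the log2 differences, medial minus lateral, were 3.77 for Sema3d, 0.65 for Sema3a, −1.59 for Sema3e and 0.35 for Sema3c. The sign of the means thus changed between neighbours of the family. The Sema3c difference did not pass (adjusted p = 0.0812 in limma), and the Sema3a call held in only 1 of the 6 fits with 1 sample left out. Of the 22 genes, 9 had a row. Of these, 2 passed as higher in the medial samples (Sema3d and Sema3a) and 2 as lower (Sema3e and Cacna2d1). Over all rows, 3.07% passed. Sema3d, Sema3a and Sema3e are members, and members bound the stretch, so no excess along it is read from this count. Pclo, which lies next to Sema3e and encodes the presynaptic protein Piccolo, differed by −0.09 ± 0.12 (SE, adjusted p = 0.833 in limma). Cacna2d1, which encodes a calcium channel subunit, was higher in lateral neurons by 1.56-fold (−0.64 ± 0.10 on the log2 scale, SE, with an adjusted p of 0.0244), and this call ended whichever sample was left out (adjusted p up to 0.10). The Hgf row, for a growth factor that attracts motor axons, had group means of 4.11 and 4.13. Both lie below the range of the muscle genes and cannot be told apart from background. Rows of the Speer genes belong to a family of close copies and are not interpreted.

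**Figure D2:**
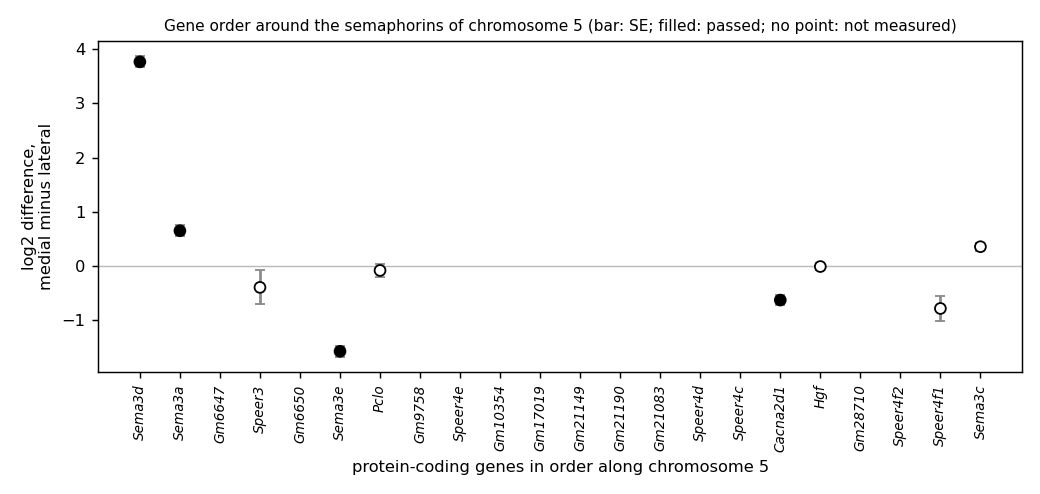
Log2 difference, medial minus lateral (vertical axis, bars are SE), of the protein-coding genes from Sema3d to Sema3c in their order along chromosome 5 (horizontal axis, not to distance). Filled points passed an adjusted p of 0.05, and genes without a point had no row. Sema3d at 3.77 and Sema3a at 0.65 lie side by side, and Sema3e lies at −1.59.

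Sema3a, the founding repellent of the class and the ligand of Nrp1, read 9.93, 9.76 and 9.89 in medial replicates 1, 2 and 3 and 9.34, 9.26 and 9.03 in lateral replicates 1, 2 and 3. The groups did not overlap, with a gap of 0.42 between the nearest values. The log2 difference was 0.65 ± 0.11 (SE, 95% interval 0.39 to 0.90, adjusted p = 0.0291 in limma). In fold terms the medial level was 1.56 times the lateral level. Of the 6 fits with 1 sample left out, only the one without lateral replicate 1 kept the call (adjusted p = 0.0471). Without medial replicate 1, 2 or 3 the adjusted p was 0.117, 0.0723 and 0.128, and without lateral replicate 2 or 3 it was 0.0934 and 0.0558.

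Sema3c, which binds both neuropilins and can attract as well as repel axons, read 11.4, 11.3 and 11.2 in the medial samples and 10.96, 11.0 and 10.96 in the lateral samples. The groups were separate by 0.23. The log2 difference of 0.35 ± 0.08 (SE, 95% interval 0.17 to 0.53) had an adjusted p of 0.0812 in limma and did not pass. It passed in 3 of 9 other settings that kept all samples, namely with the dimmer rows left out at the median (0.0355), with 1 row per gene (0.0302) and with a variance trend and robust moderation (0.024). The other settings reached an adjusted p of up to 0.141.

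Sema3f, the classical ligand of Nrp2, read 9.21, 9.20 and 9.30 in the medial samples and 9.01, 9.06 and 8.78 in the lateral samples. The groups did not overlap, although the gap of 0.15 was no wider than the SD of the lateral samples. The log2 difference was 0.29 ± 0.10 (SE, 95% interval 0.06 to 0.53, adjusted p = 0.256 in limma). A medial excess of up to 1.44-fold lies within that interval. Sema3b, a further neuropilin ligand, lies close to Sema3f on chromosome 9, in a stretch of 5 genes that all had a row and of which 0 passed. It read 6.62, 6.72 and 6.76 in the medial samples and 6.52, 6.73 and 6.74 in the lateral samples. These values overlapped, and they fell within the range of the muscle genes. The log2 difference was 0.04 ± 0.09 (SE, adjusted p = 0.926), with an interval from −0.19 to 0.26.

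Among the receptors, Nrp1, the neuropilin that binds Sema3a, read 11.2, 11.3 and 11.2 in the medial samples and 11.9, 11.9 and 11.8 in the lateral samples. The nearest values of the groups were 0.47 apart. The log2 difference was −0.59 ± 0.07 (SE, 95% interval −0.76 to −0.41, adjusted p = 0.0113 in limma), which is 1.502-fold in favour of the lateral samples. The call held in 3 of the 6 fits with 1 sample left out. The adjusted p was 0.0611 without medial replicate 1, 0.0658 without medial replicate 3 and 0.0557 without lateral replicate 2. Sema3a and its receptor gene Nrp1 differed in opposite directions, the ligand with a higher level in the medial and the receptor with a higher level in the lateral samples.

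Plxnd1, the receptor of Sema3e, read 6.08, 6.19 and 6.17 in the medial samples and 6.35, 6.50 and 6.51 in the lateral samples. Every lateral value was above every medial value, by 0.16 at the nearest. The log2 difference was −0.31 ± 0.08 (SE, 95% interval −0.50 to −0.11, adjusted p = 0.152 in limma) and did not pass in any of the 6 fits with 1 sample left out or the 8 other settings that kept its row. All its values lie within the range of the muscle genes. Plxnd1 and Nrp1 are also genes of blood vessels. Of 10 endothelial markers, 9 did not pass. Cldn5 passed as higher in the medial samples, with means of 6.05 and 5.60 that both lie within the muscle range, and lost its call whichever sample was left out (adjusted p up to 0.123). The differences of the 10 ran from −0.12 for Pecam1 to 0.45 for Cldn5, with a median of −0.04. The summed linear values of the endothelial markers ranged from 438 to 476 in the medial and from 414 to 480 in the lateral samples. Cdh5, Tek and Pecam1 had group means between 4.05 and 5.08. The highest mean of the 10 over all arrays was 6.83, so all lie within or below the muscle range. The sums therefore do not measure vessel cell content. The part of vessel cells in the results was not tested.

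**Figure D3:**
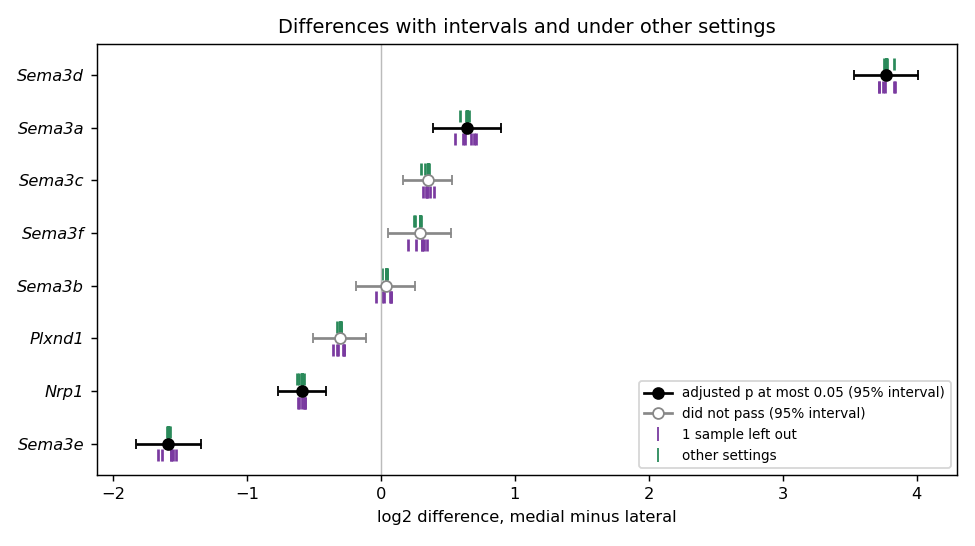
Log2 difference, medial minus lateral (horizontal axis), of each measured gene with its 95% interval. Filled points passed an adjusted p of 0.05, purple ticks are the 6 fits with 1 sample left out and green ticks the other settings. The differences of Sema3d stayed between 3.72 and 3.84 and those of Sema3e between −1.66 and −1.53 with 1 sample left out.

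Partners of these ligands and receptors were read from lists of pathway genes, and 5 of the 59 measured passed (8.47%, against 3.07% of all rows), 2 as higher and 3 as lower in medial neurons. All rows include dim rows and rows without a listed gene, so these shares are not of like rows. When the fit kept 1 row per gene, 917 of 14860 genes passed, but the partners were not counted in that fit. The lists were also chosen with earlier results known, and no excess among the partners is read from the shares. Of 4 class A plexins, the signalling partners of the neuropilins, 0 passed in limma, although 3 had an unadjusted p under 0.05, as did 13.4% of all rows. The groups overlapped in 0 of the 4, and 19.3% of all rows were likewise free of overlap. Plxna4, which pairs with Nrp1 in the response to Sema3a, differed by −0.32 ± 0.08 on the log2 scale (SE, adjusted p = 0.136, unadjusted p = 0.00719), and Plxna1 one of −0.22 ± 0.08 (adjusted p = 0.286). Plxna2 and Plxna3 differed by 0.47 ± 0.19 and 0.13 ± 0.07. The median of the list was −0.05.

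Among 4 adhesion molecules that associate with neuropilins, Chl1 passed as lower in the medial samples. Chl1, a relative of L1 that binds Nrp1 and takes part in the response to Sema3a, read 7.32, 6.93 and 7.32 in medial replicates 1, 2 and 3 and 9.15, 9.08 and 8.99 in lateral replicates 1, 2 and 3. The groups were well separated, with a log2 difference of −1.88 ± 0.13 (SE, adjusted p = 0.00118 in limma), or 3.69-fold in favour of the lateral samples. The medial mean of 7.19 lies within the muscle range, so this fold too can understate the difference. This call held in all 6 fits with 1 sample left out. Nrcam, the relative of L1 that associates with Nrp2, had a log2 difference of 0.45 ± 0.09 (SE) and missed the threshold narrowly (adjusted p = 0.0501), passing in 7 of 9 other settings that kept all samples and in 0 of the 6 with 1 left out. L1cam and Cntn2 differed by −0.08 ± 0.07 and 0.20 ± 0.13 and did not pass. The median of the 4 genes was 0.06.

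Of 7 measured VEGF ligands and receptors, which share the neuropilins, 0 passed in limma and 0 had an unadjusted p under 0.05. Vegfc, Vegfd, Pgf, Kdr and Flt1 had means within or below the muscle range. Only Vegfa and Vegfb could therefore be told apart from background. Pgf, with the smallest p of the list, differed by 0.18 ± 0.08 (SE, adjusted p = 0.424) and Vegfb by 0.14 ± 0.08 (adjusted p = 0.576). Vegfa, the ligand of Nrp1 in this family, had means of 10.04 in the medial and 10.02 in the lateral samples, with a log2 difference of 0.02 ± 0.07. The list had a median of 0.02.

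Of 24 measured intracellular effectors of plexins and neuropilins, 1 passed as higher and 0 as lower, with a median log2 difference of 0.02. The largest difference of the list, 1.11 ± 0.27 (SE) for Cfl1, did not pass (adjusted p = 0.119 in limma). Its means of 6.66 in the medial and 5.55 in the lateral samples lie within the muscle range. Ranbp9, whose protein binds class A plexins, was higher in medial neurons by 1.36-fold (0.45 ± 0.08 on the log2 scale, SE, with an adjusted p of 0.0379 in limma), and lost its call whichever sample was left out (adjusted p up to 0.157). The collapsin response mediator genes Crmp1, Dpysl2, Dpysl3, Dpysl4 and Dpysl5, which relay the Sema3a signal to the cytoskeleton, had differences from −0.02 for Dpysl5 to 0.21 for Crmp1 and did not pass. Of 5 measured proteases that can process semaphorins or their receptors, Adamts1 passed as lower in medial neurons (−0.56 ± 0.10 on the log2 scale, SE, with an adjusted p of 0.0389). Its group means of 5.82 and 6.39 lie within the range of the muscle genes, and its call ended whichever sample was left out (adjusted p up to 0.150). Furin, which cleaves class 3 semaphorins, differed by 0.14 ± 0.10 and did not pass. The median of the proteases was −0.12.

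Among 15 measured semaphorins of other classes and plexins of classes B and C, 1 passed as higher and 1 as lower in the medial samples, with a median of −0.07. Sema6a, a membrane-bound semaphorin, was higher in medial neurons by 1.58-fold (adjusted p = 0.0127 in limma). Its call ended without medial replicate 1 or 3, with an adjusted p of 0.0636 and 0.0713. Sema5a, also membrane-bound, was higher in lateral neurons by 2.92-fold (adjusted p = 0.00763), and its call held in all 6 fits with 1 sample left out.

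**Figure D4:**
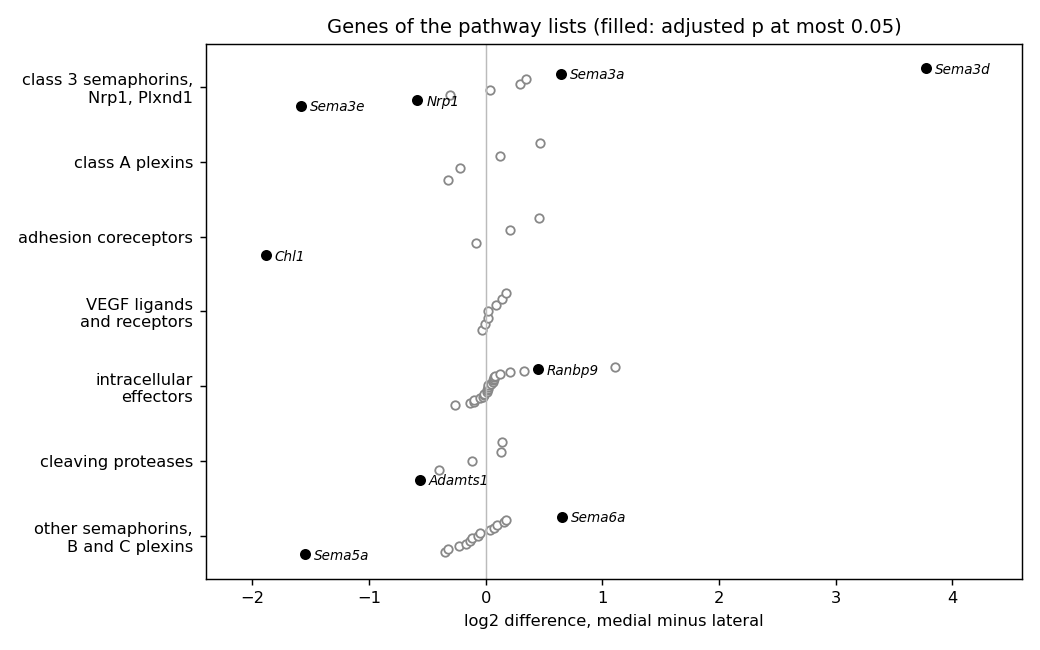
Log2 difference, medial minus lateral (horizontal axis), of every measured gene of the members and of 6 lists of partners and relatives (rows). Filled, named points passed an adjusted p of 0.05. Outside the members the filled points are Chl1 at −1.88, Sema5a at −1.55, Adamts1 at −0.56, Ranbp9 at 0.45 and Sema6a at 0.66.

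The genes whose pattern over the 6 arrays was most like that of Sema3d were, among 13606 genes compared, Uts2, Lhx3 and Mecom. Likeness was the root mean square difference between log2 profiles centred on their own means, which was 0.17 for Uts2, 0.29 for Lhx3 and 0.38 for Mecom. Uts2 encodes the peptide urotensin 2 and had means of 10.2 ± 0.15 in the medial and 6.59 ± 0.18 in the lateral samples (log2, SD, n = 3). The 3 genes most like Sema3e were Socs2, a regulator of cytokine signalling, Pcdh15, a protocadherin gene, and Cacna1e, a calcium channel gene, at 0.07, 0.08 and 0.08. Socs2 read 10.7, 10.6 and 10.7 in the medial samples and 12.2, 12.1 and 12.1 in the lateral samples. With 2 groups of 3 arrays, this measure mostly finds genes with a group difference of like size.

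**Figure D5:**
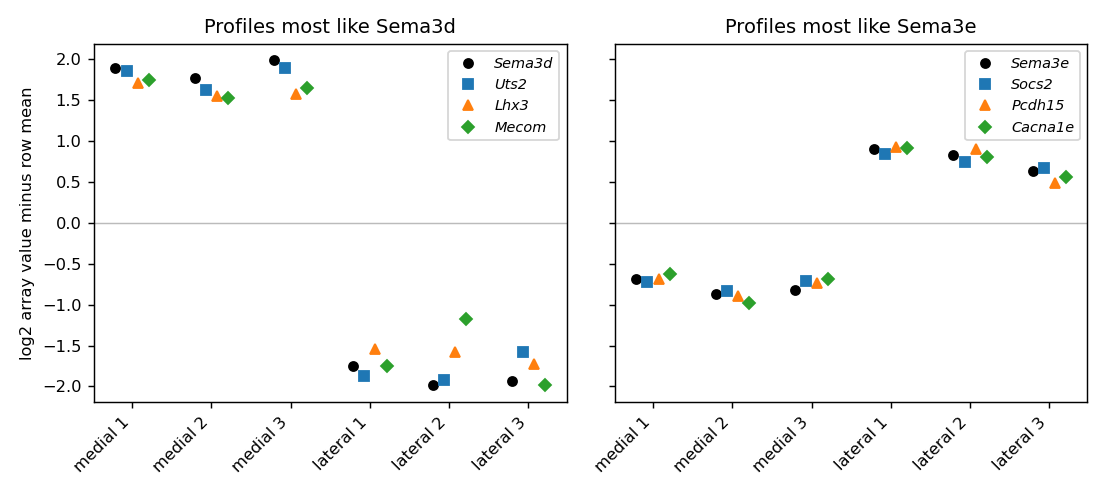
Log2 array value minus the mean of the row (vertical axis) in each of the 6 samples (horizontal axis) for Sema3d and Sema3e (black circles) and the 3 genes with the most similar profile. The Sema3d group lies near 1.5 to 2 in the medial samples and the Sema3e group lies below 0 there.

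Markers of other cells were read beside these results. Of 5 floor plate markers, Shh and Spon1 passed as lower in the medial samples, by 2.04-fold and 2.47-fold, in the direction of Sema3e and Nrp1, while Foxa2, which defines the floor plate, differed by 0.03 ± 0.10 (SE) and had means of 6.97 and 6.94 within the muscle range. The summed linear values of the list ranged from 1089 to 1192 in the medial and from 2230 to 2348 in the lateral samples. Spon1, with means of 9.32 and 10.6, was the largest part of these sums. Of 6 progenitor markers Sox2 passed as higher in the medial samples, with means of 6.31 and 5.68 that both lie within the muscle range. This call ended whichever sample was left out (adjusted p up to 0.113). The summed values ranged from 7962 to 8455 and from 8118 to 8489. They come almost wholly from Vim, with means of 12.90 and 12.94. Olig2, Nes, Hes5 and Mki67 had means within or below the muscle range, so the sums do not measure progenitor content. Of the 4 measured markers of sensory neurons and neural crest, 8 of mesenchyme and cartilage, 6 of interneurons and 5 of blood and myeloid cells, 0 passed in limma, and the mesenchyme gene Prrx1, at −0.59 ± 0.18 (log2, SE, adjusted p = 0.208), was the only one with an unadjusted p under 0.05. The part of such cells in the results was not tested. In sorted populations of mixed motor neurons, a higher value can come from more cells that express a gene or from more RNA per cell, which cannot be told apart.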

How the data were processed

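RNA of 6 samples (3 medial, 3 lateral) was hybridised to 1 array each after biotin labelling with a whole-transcript terminal labelling kit, per the labels' protocols. The authors deposited log2 values, 1 per row and array, a scale read from their range. How these were summarized and normalized is not given in the sources used here. The build is mm9, per the submitters' processing notes. The number of arrays limits the precision.

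All 23332 rows were fitted with limma 3.58.1 in R 4.3.3 (lmFit, eBayes, two-sided, no block), and p-values were adjusted by Benjamini-Hochberg over the whole table, with a threshold of 0.05. Standard errors and 95% intervals of differences come from this fit, and n is 3 per group. The p-values reflect the spread of samples that the labels call biological replicates. Symbols came from the platform's probe table (14996 rows with 1 symbol, 1019 with several, 7317 not listed), updated through RefSeq of GRCm38.p6. The row with the highest mean stood for a gene. The fit was tested on simulated data.

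The members and lists were chosen with earlier results of these data known. The text names all members, the pathway genes that passed (or those with the smallest p where none did), the most alike profiles and marker genes. Other pathway genes, neighbours and Nrcam were named after their values were seen. Alternatives were a replicate block, leaving out each sample, quantile normalization, subtracting array medians, 2 filters on dim rows, 1 row per gene, a variance trend with robust moderation, array weights and a fold of at least 1.5. PowerExpress, named in the series design, was not run.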

Additional observations from a re-analysis of the deposited data

How the results depend on the processing

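Of 118 differences of the members under other settings, 106 kept their side of the threshold, 9 lost a call and 3 gained one. No called difference changed sign, whereas that of Sema3b, which did not pass, ranged from −0.04 to 0.08 with 1 sample left out. The count of members passed ranged from 2 to 4 with 1 sample left out, and was 2 when medial replicate 1 or 3, or lateral replicate 2, was the one left out. The count over all rows ranged from 326 to 538 with 1 sample left out, against 717. With 1 array fewer a fit has fewer degrees of freedom. Settings that kept all samples gave between 3 and 5 members. The deviations of same-numbered samples correlated with r of 0.35, 0.07 and 0.02, so the numbers were not taken to pair the samples. With the replicate block, 481 rows and 3 members passed, and the adjusted p of Sema3a was 0.0773, that of Nrp1 0.0429, that of Sema3e 0.0123 and that of Sema3d 0.00309. Among the 28 other genes followed, 0 of 417 values reversed, 49 lost a call and 7 gained one. Among them the block ended the calls of Sema6a (0.0678), Nkx6-1 (0.0753), Ranbp9 (0.0768), Adamts1 (0.0796), Cldn5 (0.0923) and Sox2 (0.127). Averaging the rows of a member gave no value of its own, since each had 1 row. Rows within the muscle range limit the folds of Sema3d, Sema3e and Chl1 and the reading of Sema3b and Plxnd1.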
